A study of Mus musculus with 18 samples.

Results

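The genes described here encode the secreted antimicrobial proteins of mouse Paneth cells, and 29 of the 32286 features of the single-cell libraries belong to them. Of these, 22 carry a symbol that starts with Defa, the alpha-defensin (cryptdin) genes. The other 7 are the defensin-like genes AY761184 and Gm14851 and the genes Lyz1, Mptx2, Ang4, Itln1 and Mmp7. The members are set by symbol and by known function, with no threshold on a measured value. The study asked what the histone methyltransferase Setdb1 does in Lgr5+ stem cells of the small intestine and in their progeny. In the Lgr5+ sort, ileal crypt cells sorted for GFP came from Lgr5-GFP-CreERT2 mice (Lgr5+WT) and from Lgr5-GFP-CreERT2/Setdb1lox/lox mice (Lgr5+Setdb1KO). The paper explains the mature cells of this sort, Paneth cells among them, by its gating and by incomplete enrichment, and describes them as not GFP-positive. Whether Cre had acted in these Paneth cells was not tested. In the lineage-traced sort the mice also carried nTnG, a ROSA26 reporter whose nuclear tdTomato is replaced by nuclear EGFP after Cre acts, so that recombined stem cells and their progeny were sorted (nTnG WT and nTnG Setdb1-KO). All mice, controls included, were C57Bl6 animals of 60 to 65 days that received tamoxifen at 70 mg/kg, and cells were taken 5 days after treatment. Expression of the Lgr5 knock-in that drives both GFP and Cre is mosaic, so that only some crypts express it. Each of the 4 groups held 2 single-cell libraries, 8 of the 18 samples of the series, and total RNA, H3K9me3 and open chromatin samples were not analysed here.

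Paneth cells sit at the base of the crypts between the Lgr5+ stem cells and release granules of antimicrobial proteins into the crypt lumen. Alpha-defensins are made as inactive precursors, and in mice the matrix metalloproteinase encoded by Mmp7 cuts them into the active peptides. Lyz1 encodes the Paneth cell lysozyme, which cleaves bacterial cell walls, Ang4 a ribonuclease with bactericidal activity, Itln1 the intestinal lectin intelectin, which binds microbial sugars, and Mptx2 a pentraxin-family protein enriched in Paneth cells. Wnt signalling through beta-catenin and TCF factors is needed for Paneth cells to mature, and it directs defensin genes and Mmp7.

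The defensin genes lie together, which bears on how far their counts can be separated. The 24 members on chromosome 8 were spread over 710 kb (chr8:21025545-21735471, GRCm38), with Defa21 at its first base and Defa24 at its last (chr8:21734494-21735471, + strand). The other 5 members stood alone on other chromosomes: Itln1 (chr1:171518122-171535294) and Mptx2 (chr1:173274382-173277777) on chromosome 1, Lyz1 (chr10:117287797-117292868), Ang4 (chr14:51763878-51773590) and Mmp7 (chr9:7692090-7699585). The assay counts the 3′ ends of transcripts, and in 20 of the 29 members over 50% of the 50-base stretches in the last 500 transcript bases also occurred in another gene. For Defa2, Defa20, Defa31, Defa32, Defa33 and Defa37 this share was 100%, for Defa21 72.9%, for Defa22 74.9% and for Defa24 28.1%. In Itln1 and Mmp7 it was 0%, in Mptx2 2.44% and in Lyz1 17.7% (shared with Lyz2). The counts of single defensin genes are therefore uncertain, and the sum over the Defa genes, Itln1, Mmp7, Mptx2 and Ang4 are the better separated values.

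Defa21 and Defa22, which moved together in the comparisons that follow, also had the same promoter letters over all 250 bases before the transcript start, as did Defa23 and Defa31, Defa2 and Defa20, and Defa36 and Defa37. Promoter windows were found for 18 of the 29 members in the RefSeq table of GRCm38.p6, where Gm14851 is listed as Defa38. The 7-letter core bound by TCF and LEF factors, ATCAAAG on either strand (CTTTGAT on the other), occurred in 12 of the 18 windows, against 3.21% of all 32851 promoter windows of that length. These 12 were the windows of the 12 matched genes with a Defa symbol, and the letters were in none of the 6 windows of Gm14851, Mptx2, Itln1, Lyz1, Ang4 and Mmp7. The windows of paralogs are near copies of each other and are not independent counts. 5 windows are shown 5′ to 3′ on the gene's strand with the core in capitals, 3 defensin windows with 1 or 2 matches and, for contrast, that of the defensin-like Gm14851 and that of Mptx2, on which later comparisons turn. They are Defa21 (chr8:21025295-21025544, + strand, the nearer match 65 bases before the start), Defa23 (chr8:21054790-21055039, + strand, 67 bases), Defa30 (chr8:21134400-21134649, + strand, 135 bases), Gm14851 (chr8:21096051-21096300, − strand) and Mptx2 (chr1:173277757-173278006, − strand).
Defa21: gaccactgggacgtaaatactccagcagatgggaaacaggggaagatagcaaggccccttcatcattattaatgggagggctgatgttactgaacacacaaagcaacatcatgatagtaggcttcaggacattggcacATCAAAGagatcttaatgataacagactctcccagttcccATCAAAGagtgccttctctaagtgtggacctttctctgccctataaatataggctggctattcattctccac
Defa23: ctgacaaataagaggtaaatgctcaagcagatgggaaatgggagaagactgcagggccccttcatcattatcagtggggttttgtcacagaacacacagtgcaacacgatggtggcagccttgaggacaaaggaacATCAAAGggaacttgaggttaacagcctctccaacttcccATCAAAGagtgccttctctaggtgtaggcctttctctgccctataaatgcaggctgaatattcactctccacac
Defa30: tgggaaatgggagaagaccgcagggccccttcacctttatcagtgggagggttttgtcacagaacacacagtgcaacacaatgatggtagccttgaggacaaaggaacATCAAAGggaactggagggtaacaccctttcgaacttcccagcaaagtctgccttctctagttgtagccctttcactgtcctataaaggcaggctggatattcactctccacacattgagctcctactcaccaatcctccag
Gm14851: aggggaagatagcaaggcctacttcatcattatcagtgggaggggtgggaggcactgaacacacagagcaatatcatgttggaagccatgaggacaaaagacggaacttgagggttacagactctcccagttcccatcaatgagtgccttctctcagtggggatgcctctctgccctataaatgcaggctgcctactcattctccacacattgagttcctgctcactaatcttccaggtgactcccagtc
Mptx2: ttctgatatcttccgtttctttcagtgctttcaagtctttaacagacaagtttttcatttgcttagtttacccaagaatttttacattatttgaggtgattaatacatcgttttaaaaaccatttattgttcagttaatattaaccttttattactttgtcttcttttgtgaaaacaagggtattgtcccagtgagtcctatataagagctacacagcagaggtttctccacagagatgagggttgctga
The letters are a description of these windows only, and binding was not measured.

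Each library held 1291170 to 3084023 barcodes and 16881518 to 81876035 UMIs (unique molecular identifiers, each standing for 1 counted transcript), and 2659 to 10438 barcodes per library were kept as cells. A kept cell was called a Paneth cell when Defa genes gave at least 10% of its UMIs in the Lgr5+ sort or at least 30% in the lineage-traced sort. Free RNA, which stands for the RNA outside cells, was read from the barcodes ranked 45000 to 90000 by UMIs. Intestinal epithelium markers summed to 4044 to 7358 CPM (UMI counts scaled to a common library total) and liver markers to 0.630 to 4.03 CPM in the kept cells. Setdb1 in kept cells was at 11.4 and 10.0 CPM in the Lgr5+WT libraries and 5.37 and 6.25 CPM in the Lgr5+Setdb1KO libraries, and at 6.02 and 4.42 CPM in nTnG WT and 10.1 and 7.63 CPM in nTnG Setdb1-KO. The deletion removes an early exon, which 3′ counts do not see, so that these levels do not check the genotypes. Pairs of libraries shared 3 to 20 kept barcodes, and 1 of these was called a Paneth cell in both nTnG WT libraries.

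Paneth cells by this limit made up 1.74% and 1.72% of the kept cells in Lgr5+WT (81 and 102 cells) and 1.52% and 3.26% in Lgr5+Setdb1KO (44 and 340 cells), with overlapping groups (WT 1.73% ± 0.0117, SD, n = 2; KO 2.39% ± 1.23, SD, n = 2; exact two-sided permutation p = 1). The overlap depended on the limits: without upper limits on genes and UMIs the shares were 3.601% and 3.638% in Lgr5+WT and 4.798% and 5.49% in Lgr5+Setdb1KO, and with a Defa limit of 5% they were 2.38% and 2.80% against 3.11% and 4.44%, with no overlap in either. The KO minus WT difference was 0.659 points, 1.53 without upper limits or without Lgr5+Setdb1KO replicate 1, and −0.209 without Lgr5+Setdb1KO replicate 2. In the lineage-traced sort they made up 15.5% and 38.4% in nTnG WT (1066 and 1020 cells) and 5.13% and 2.01% in nTnG Setdb1-KO (233 and 163 cells). Both nTnG WT libraries were higher than both nTnG Setdb1-KO libraries, at 26.9% ± 16.2 against 3.57% ± 2.21 (SD, n = 2 each; exact two-sided permutation p = 0.33, the smallest that 2 against 2 libraries allow). The difference of −23.3 points was −11.9 without nTnG WT replicate 2 and −34.8 without nTnG WT replicate 1. The limit did not separate cells from free RNA equally well in all libraries. In nTnG WT, Defa genes gave 36.0% and 39.2% of the free RNA itself, above the limit of 30%, and 190 of the 1066 and 655 of the 1020 Paneth barcodes had a lower Defa share than their own free RNA. In the other 6 libraries 0 or 1 Paneth barcode did. With a limit of 50%, chosen after seeing the data, Paneth cells made up 10.5% and 7.07% in nTnG WT (721 and 188 cells) and 1.92% and 1.22% in nTnG Setdb1-KO (87 and 99 cells), and 0.408%, 0.219%, 0.311% and 1.44% in Lgr5+WT replicates 1 and 2 and Lgr5+Setdb1KO replicates 1 and 2. Barcodes within 2.5 points of the limit numbered 15 to 42 below and 6 to 29 above it in the Lgr5+ libraries, and 15 to 102 below and 12 to 154 above it in the traced libraries. The nearest shares were 9.72% to 9.99% below and 10.1% to 10.4% above 10%, and 29.8% to 30.0% below and 30.0% to 30.5% above 30%. Upper limits on genes and UMIs per cell, taken from the study, removed 24 to 251 called barcodes per library that passed the Defa limit.

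Defa genes made up much of the transcript content of these cells. They gave 36.9% and 32.9% of the UMIs of Paneth cells in Lgr5+WT, 36.2% and 50.5% in Lgr5+Setdb1KO, 70.0% and 53.5% in nTnG WT, and 53.6% and 58.3% in nTnG Setdb1-KO. Since the limit on this share chose the cells, the values are a description. All 29 members together gave 46.1% to 67.9% in the Lgr5+ libraries and 63.0% to 79.9% in the traced libraries. Lgr5+Setdb1KO replicate 2 stood apart from the other 3 Lgr5+ libraries, with the highest Defa share, the most Paneth cells and, among Paneth cells, 30711 CPM of goblet cell markers against 57632 to 98574 CPM in the other 3. All 7 goblet markers passed the filter on low counts in both sorts, and in the traced libraries they summed to 17004 to 24943 CPM in Paneth cells. Spink4 gave most of this sum in every library (30350 to 59458 CPM in the Lgr5+ sort and 10726 to 21423 CPM in the traced sort, after scaling), so that the sum is not a measure of goblet cell content alone. The part of goblet transcripts in the Paneth cell results was not tested.

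**Figure D1:**
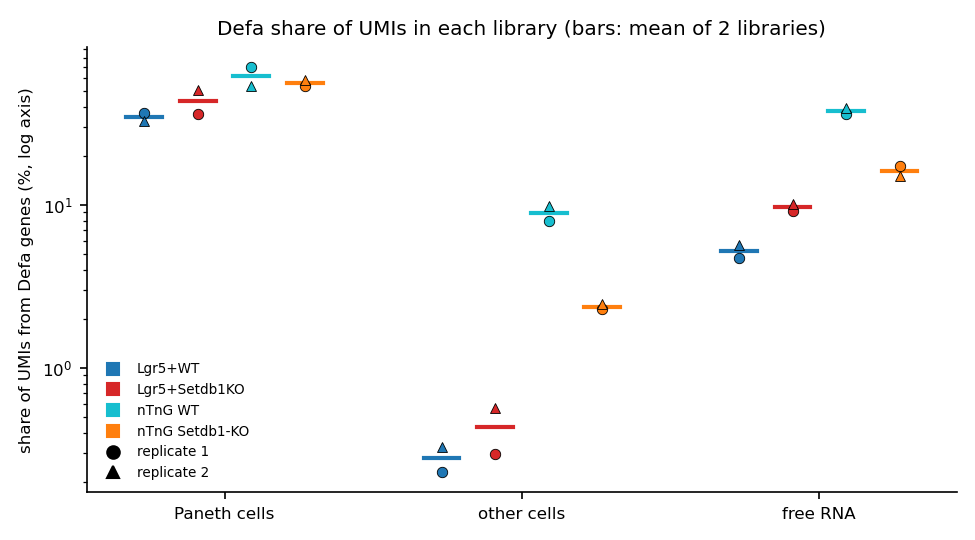
Share of UMIs from Defa genes (percent, log axis) in Paneth cells, other cells and free RNA, 1 point per library, with a bar at the mean of the 2 libraries of a group. In free RNA the Lgr5+Setdb1KO libraries (9.22% and 10.1%) sit above Lgr5+WT (4.74% and 5.68%), and the nTnG Setdb1-KO libraries (17.4% and 15.1%) sit below nTnG WT (36.0% and 39.2%).

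Outside Paneth cells the Defa share depended on the sort. In the other cells of the Lgr5+ sort it was 0.229% and 0.328% in WT and 0.298% and 0.566% in KO, with overlapping groups. In the other cells of the lineage-traced sort it was 7.98% and 9.87% in nTnG WT and 2.29% and 2.47% in nTnG Setdb1-KO, or 8.92% ± 1.33 against 2.38% ± 0.132 (SD, n = 2 each). These groups did not overlap. Since other cells are those below the limit on this share, the values for them are a description, and the traced difference of −6.54 points moved with the limit, to −5.45 at 20% and −11.8 at 50%. In free RNA the Defa share was 4.74% and 5.68% in Lgr5+WT and 9.22% and 10.1% in Lgr5+Setdb1KO (5.21% ± 0.664 against 9.67% ± 0.637, SD, n = 2 each), 1.86 times as high in KO. In the lineage-traced sort it went the other way, from 37.6% ± 2.24 in nTnG WT to 16.2% ± 1.63 in nTnG Setdb1-KO (SD, n = 2 each), 0.431 times the WT mean. In both sorts the groups did not overlap (exact two-sided permutation p = 0.33, the smallest possible). The number of Paneth cells, the part of them that broke and the RNA each held cannot be told apart in free RNA.

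Defa24 was the most abundant defensin gene in the Paneth cells of every library. A 3′ count does not scale with transcript length, so that CPM can be set side by side between genes within the limits of shared sequence. Paneth cells carried 1923 and 1998 Defa24 UMIs per cell in Lgr5+WT, 2372 and 2960 in Lgr5+Setdb1KO, 2635 and 897 in nTnG WT, and 1007 and 2117 in nTnG Setdb1-KO. The low value of nTnG WT replicate 2 went with a median of 1149.5 UMIs per Paneth cell, against 2047 to 9146.5 in the other 7 libraries. Defa30 was second in 7 libraries, at 39881 to 124860 CPM in the Lgr5+ sort and 138250 to 224040 CPM in the traced sort, while AY761184 exceeded it in Lgr5+WT replicate 2 (50942 against 39881 CPM). The defensin-like genes AY761184 (37396 to 59501 CPM over all 8 libraries) and Gm14851 (14772 to 59877 CPM) lay below Defa24 in every library. Defa22 and Defa21 were at 3071 to 15471 and 1424 to 16313 CPM in the Lgr5+ sort and at 26656 to 37594 and 26076 to 37068 CPM in the traced sort. These 2 genes share most of their 3′ sequence. Lyz1 and Itln1 were higher in the Paneth cells of the Lgr5+ sort (18712 to 26990 and 22491 to 30403 CPM) than in those of the traced sort (6001 to 9781 and 6732 to 11045 CPM), with no overlap between the sorts, whose limits and cells differed. Mmp7 was likewise at 1427 to 3891 CPM in the Lgr5+ sort and 482 to 721 CPM in the traced sort, whereas Ang4 was at 1461 to 2381 CPM across both. At the bottom, Defa33 had no UMI in any library, and Defa2, Defa25, Defa31 and Defa37 stayed between 0 and 4.99 CPM. In these genes 74.8% to 100% of the 50-base stretches at the 3′ end also occur in another gene.

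**Figure D2:**
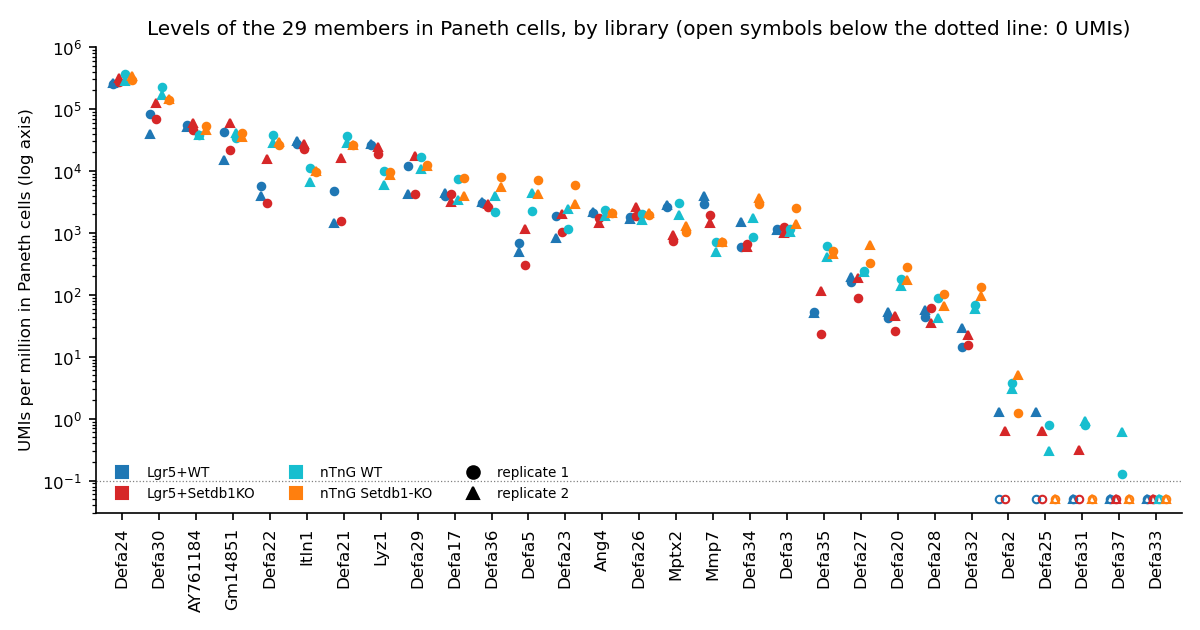
Level of the members in Paneth cells (CPM, log axis), 1 point per library, coloured by group. Defa24 is the highest member.

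The mixture of defensins changed with the amount of defensin a cell held, and did so mainly in the Lgr5+ sort. Among cells with 5% to 10% of their UMIs from Defa genes, just under the limit, Defa24 gave 92.0% and 96.0% of the Defa UMIs in Lgr5+WT and 81.1% and 91.8% in Lgr5+Setdb1KO (30, 64, 46 and 123 cells). Among cells with 60% or more it gave 61.5%, 60.1%, 62.8% and 58.0% (3, 3, 3 and 89 cells), near its share of the free RNA of the same libraries (59.9%, 60.7%, 56.6% and 56.7%). The share of Defa24 was thus higher in the lower class than in the upper class of each Lgr5+ library, and least so in Lgr5+Setdb1KO replicate 1. Defa30 took the opposite course, from 2.68%, 1.35%, 9.65% and 4.27% in the lower class to 28.4%, 32.6%, 31.3% and 27.0% in the upper. Defa17 fell with Defa24, from 1.28% to 1.99% down to 0.477% to 0.810%. Since the classes are cut on the Defa share itself, these shares are a description with no test, and cells of 1 library are not replicates. The order was the same in both genotypes. In the traced sort Defa24 gave 52.4% to 62.2% of the Defa UMIs at 5% to 10% and 51.7% to 58.9% at 60% or more, so that no such course was seen there, where free RNA held 15.1% to 39.2% Defa UMIs. Genes that the cut did not use also differed between the classes of the Lgr5+ sort. Gm14851 went from 554, 472, 4715 and 1457 CPM at 5% to 10% to 71870, 31610, 31140 and 67130 CPM at 40% to 60%, in Lgr5+WT replicates 1 and 2 and Lgr5+Setdb1KO replicates 1 and 2. AY761184 went from 2219 to 4688 CPM to 66550 to 92400 CPM. Gm14851 and AY761184 are defensin-like genes of the same locus and share 55.6% and 33.0% of their 3′ stretches with other genes. Their course is thus not independent of the cut. Mmp7, the defensin-activating protease, was already at 2058 and 2539 CPM in the WT cells of the lower class and peaked at 3713 and 5138 CPM in the WT class of 20% to 40%.

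**Figure D3:**
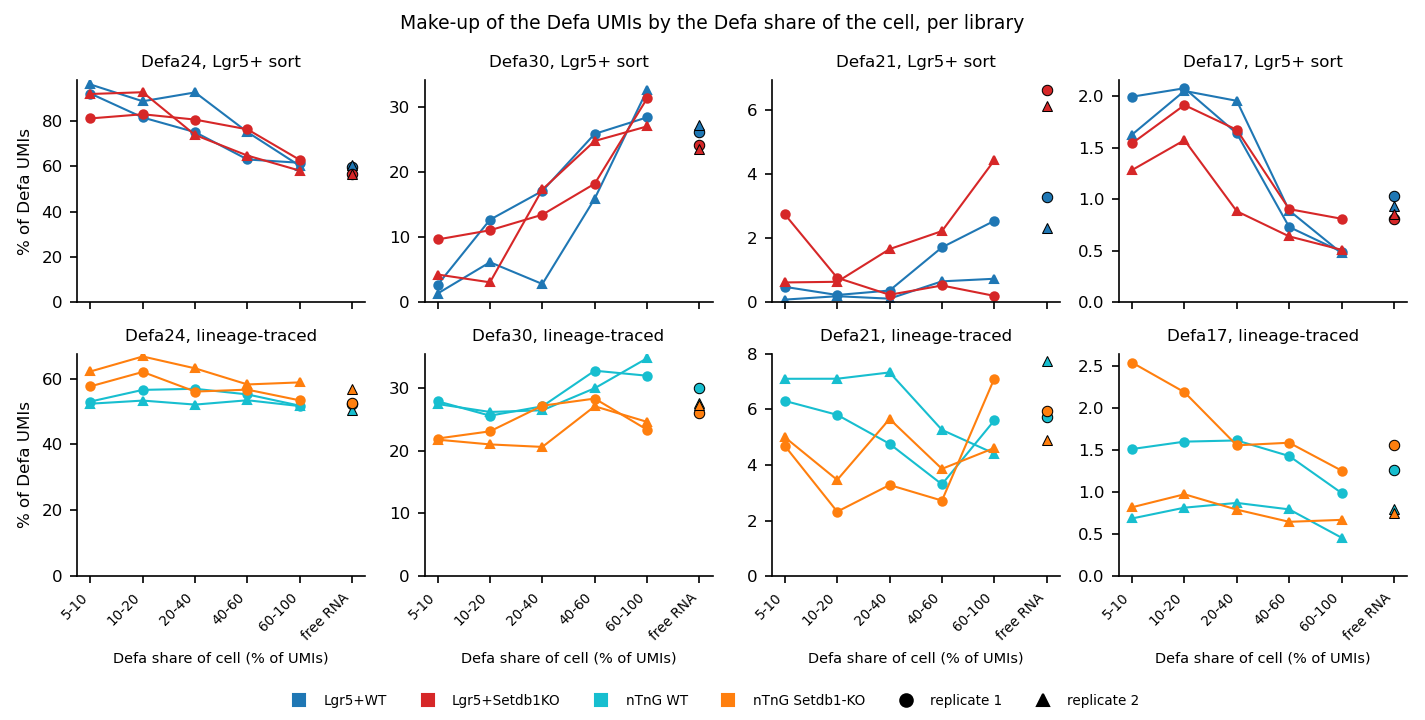
Share of the Defa UMIs given by Defa24, Defa30, Defa21 and Defa17 (percent) against the Defa share class of the cells, 1 line per library, with the free RNA of the same library beside it. In the Lgr5+ sort Defa24 falls from 81.1% to 96.0% in the class of 5% to 10% to 58.0% to 62.8% in the class of 60% and over while Defa30 rises, and the traced Defa24 lines are nearly flat.

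Within Paneth cells, under the cell limits of the study, no member passed the test between genotypes. The limit on the Defa share chose these cells, so that the values of the Defa genes here are a description of cells chosen on them, and a call or its absence is no independent evidence for these genes. In the Lgr5+ sort 24 of the 29 members passed the filter on low counts, and 0 of the 24 were called by edgeR's quasi-likelihood test at a Benjamini-Hochberg adjusted p under 0.05, where 0.153% of the 3911 genes tested were called. At an unadjusted p under 0.05 the number was 5, and 202 over the 3911 genes, and DESeq2 called 0 members. The members' median log2 fold change, KO over WT, was 0.37, with 20 of 24 above 0, against 0.0023 over all genes tested. It was 0.59 for the 17 Defa genes tested and 0.10 for the 7 members whose UMIs did not enter the limit. That direction changed with the libraries and cells used: without Lgr5+Setdb1KO replicate 2 the median was −0.44, and without replicate 1 it was 0.74. Without the upper limits on genes and UMIs, which left 81 of 178, 102 of 224, 44 of 160 and 340 of 589 Paneth barcodes in Lgr5+WT replicates 1 and 2 and Lgr5+Setdb1KO replicates 1 and 2, 6 members were called higher and 1, Mptx2, lower. Of the 8328 genes of that fit 56 were called higher and 26 lower. With all 4 libraries and a Defa limit of 50%, chosen after seeing the data, the members' median was −0.45 with 1 of 21 members above 0. Defa21 shows this most plainly, at 4417 and 1282 CPM in Lgr5+WT and 1448 and 23774 CPM in Lgr5+Setdb1KO after scaling by trimmed mean of M-values (TMM). Its log2 fold change was 2.15 (SE 0.802, edgeR adjusted p = 0.827), −0.98 without replicate 2 and 3.09 without replicate 1. For Mmp7 the values were 2724, 3501, 1817 and 2080 CPM, lower in both KO libraries, with a log2 fold change of −0.67 (SE 0.336, edgeR adjusted p = 0.972). Lyz1, Itln1 and Ang4 differed by 0.10, 0.19 and −0.06 on the log2 scale, with overlapping groups. In the lineage-traced sort 0 of the 24 members tested were called by edgeR, where 1.5% of 5786 genes were, and 0 by DESeq2. An unadjusted edgeR p under 0.05 was found for 1 member and for 347 of the 5786 genes. The members' median was −0.24 against −0.010 over all genes, 8 of 24 members were above 0, and without nTnG WT replicate 1 the median was 0.38. With all 4 libraries and no upper limits on genes and UMIs it was 0.15, with 19 of 25 members above 0. The difference of the 2 genotype effects between the sorts was tested as an interaction of genotype and sort over all 8 libraries. It called 0 of 24 members in Paneth cells, where 0.712% of 5054 genes were called by edgeR, and DESeq2 called 0 members. An unadjusted edgeR p under 0.05 was found for 4 members and for 268 of the 5054 genes.

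**Figure D4:**
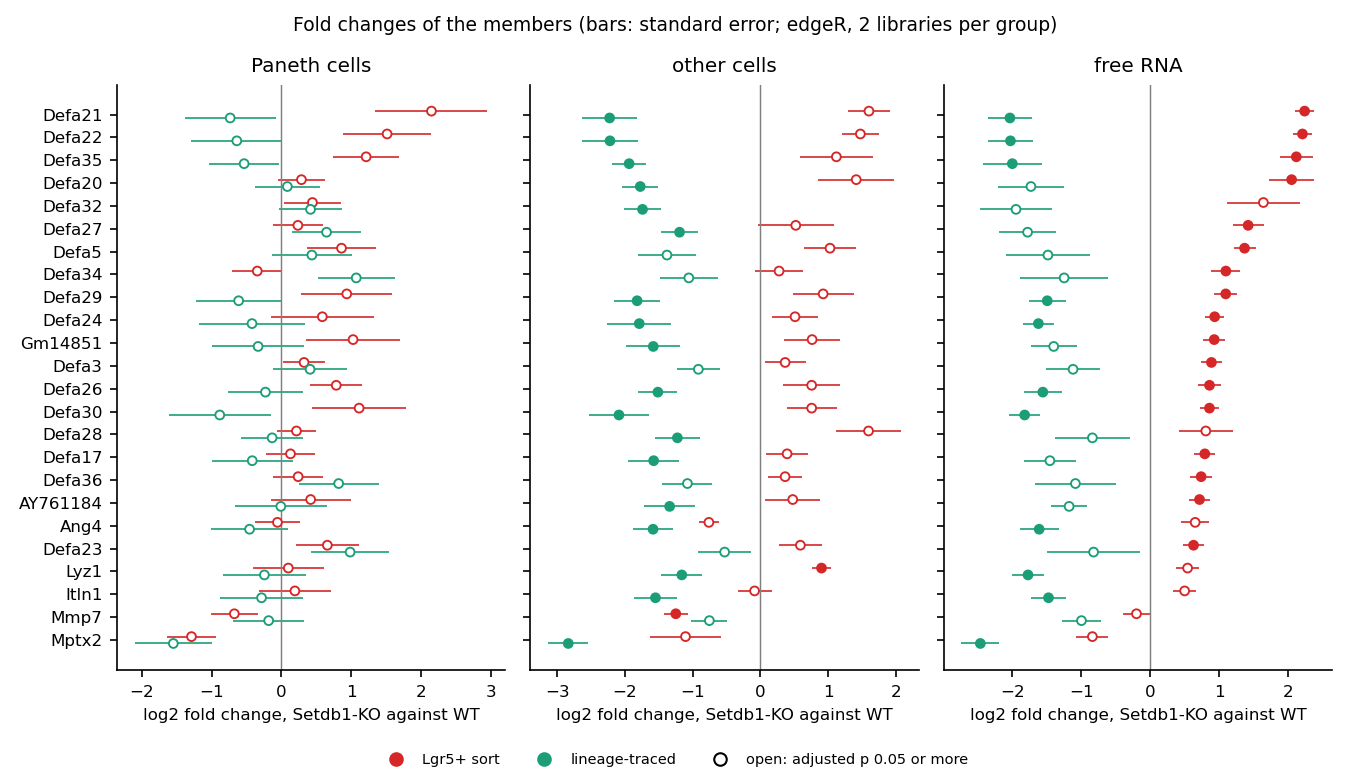
Log2 fold change of each member tested, KO over WT, with its standard error, in Paneth cells, other cells and free RNA of both sorts; filled points passed an edgeR adjusted p of 0.05. In free RNA most members lie above 0 in the Lgr5+ sort and below 0 in the traced sort, and no point is filled in Paneth cells.

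Mptx2, the pentraxin gene, was the member with the lowest fold change in Paneth cells of both sorts. In the Lgr5+ sort its level was 2467 and 2487 CPM in WT and 687 and 1330 CPM in KO, both KO libraries below both WT libraries, and its log2 fold change was −1.29 (SE 0.353, edgeR adjusted p = 0.398). In the traced sort it was 4264 and 1828 CPM in WT and 844 and 1238 CPM in KO, again without overlap, with a log2 fold change of −1.55 (SE 0.555, edgeR adjusted p = 0.232). Neither passed the threshold over all genes. Over the alternatives the fold change ran from −0.87 to −2.32 in the Lgr5+ sort, where it passed in 5 of them, among them the fit without Lgr5+Setdb1KO replicate 2 (edgeR adjusted p = 5.1e-04) and the replicate block (edgeR adjusted p = 0.00221). In the traced sort it ran from −0.82 without nTnG WT replicate 1 to −2.08 without nTnG WT replicate 2, and the latter passed (edgeR adjusted p = 4.8e-05), as did limits of 40% and 50% on the Defa share. The genotype effects on Mptx2 in Paneth cells did not differ detectably between the sorts (interaction −0.28, edgeR adjusted p = 0.999). Mptx2 was also set against the defensins of the same cells, whose share chose the Paneth cells. Paneth cells held 7.06 and 8.41 Mptx2 UMIs per 1000 Defa UMIs in Lgr5+WT and 2.03 and 1.81 in Lgr5+Setdb1KO, and 4.39 and 3.61 in nTnG WT and 1.91 and 2.19 in nTnG Setdb1-KO. Other cells held 4.45 and 7.17 against 1.45 and 1.94 in the Lgr5+ sort and 6.453 and 4.798 against 3.63 and 2.33 in the traced sort. Free RNA held 6.55 and 13.1 against 3.03 and 2.63, and 6.56 and 4.85 against 3.66 and 2.94. Both KO libraries thus lay below both WT libraries in each of these 6 sets of values, a comparison chosen after the values were seen and given without a test. The CPM of Mptx2 itself overlapped in other Lgr5+ cells (9.8 and 24.6 in WT, 4.17 and 11.4 in KO). It also overlapped in Lgr5+ free RNA (283 and 748 against 293 and 284), so that the order there depends on the Defa UMIs too. Itln1, Mmp7 and Ang4 had the same order in other Lgr5+ cells, and Itln1, AY761184, Mmp7 and Lyz1 in Lgr5+ free RNA. The values of 1 library in Paneth cells, other cells and free RNA are not independent where free RNA enters the cells.

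Cell by cell, with each Lgr5+ cell thinned to 2000 UMIs and each traced cell to 1000, an Mptx2 UMI was found in 48.1% and 26.3% of Paneth cells in Lgr5+WT and 17.9% and 34.2% in Lgr5+Setdb1KO, which overlapped. In the traced sort the shares were 79.8% and 78.4% in nTnG WT and 45.7% and 42.0% in nTnG Setdb1-KO. Without thinning they were 55.6%, 33.3%, 29.5% and 46.2% in the Lgr5+ sort and 93.1%, 84.8%, 60.1% and 62.6% in the traced sort. Other cells of the traced sort gave 37.6% and 36.2% in nTnG WT and 7.41% and 6.26% in nTnG Setdb1-KO after thinning. The shares of these other cells thus differed between the genotypes in the same direction as the Paneth cell shares. Other cells include those just under the Defa limit, and the part of free RNA in either share was not tested. In the other cells of the Lgr5+ sort the thinned share was 0.726% to 5.37%.

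**Figure D5:**
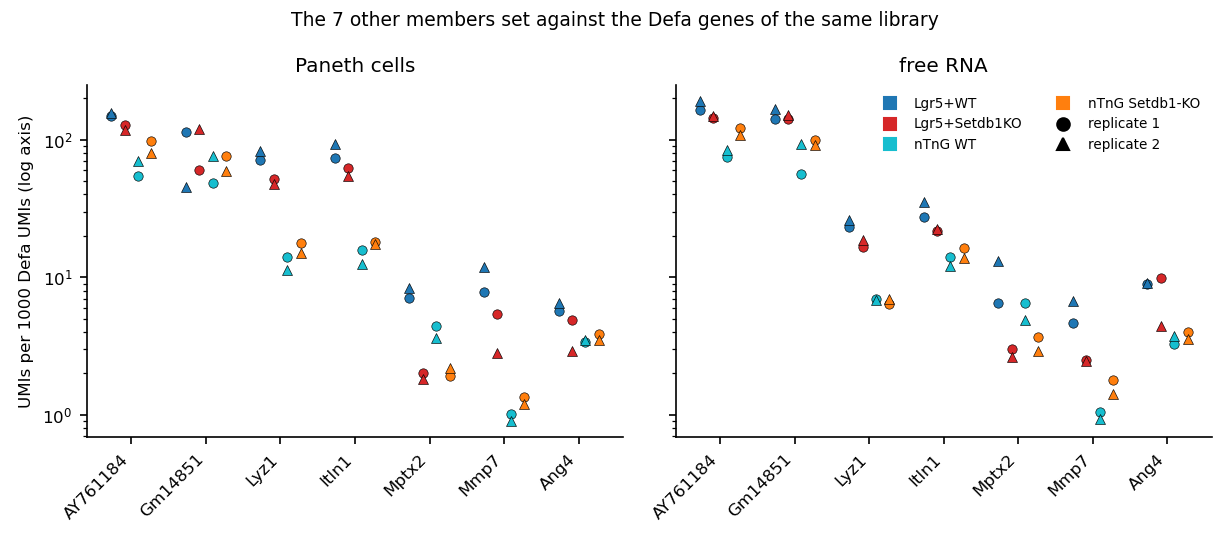
UMIs of AY761184, Gm14851, Itln1, Lyz1, Mptx2, Ang4 and Mmp7 per 1000 Defa UMIs (log axis) in Paneth cells and free RNA, 1 point per library. For Mptx2 both KO libraries lie below both WT libraries in both panels and both sorts, for example 2.03 and 1.81 against 7.06 and 8.41 in Lgr5+ Paneth cells. Its CPM overlapped between the genotypes in Lgr5+ free RNA (283 and 748 in WT, 293 and 284 in KO), where Itln1, AY761184, Mmp7 and Lyz1 had the same order per 1000 Defa UMIs.

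Counted per 1000 Defa UMIs in Paneth cells, 5 of the other 6 members also had both KO libraries below both WT libraries in the Lgr5+ sort, and none of the 6 had in the traced sort. The ratio was not computed for genes other than the members, so that these counts have no share over all genes beside them. All ratios of a library share its Defa total. In the Paneth cells of the Lgr5+ sort Lyz1 was at 70.7 and 82.1 in WT and 51.8 and 47.6 in KO, whereas in the traced sort it was at 14.0 and 11.2 in WT and 17.8 and 14.9 in KO. Mmp7 was at 7.79 and 11.8 against 5.38 and 2.83 in the Lgr5+ sort and at 1.02 and 0.901 against 1.35 and 1.20 in the traced sort. Itln1, AY761184 and Ang4 had the same order, both KO libraries below both WT libraries in the Lgr5+ sort and both at or above them in the traced sort (Ang4 3.40 and 3.52 against 3.88 and 3.52). Gm14851 overlapped in both. These ratios fall where the Defa share rises, and the Defa share chose the cells, so that they describe the mixture of transcripts and not a change in any 1 gene.

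In the other cells of the Lgr5+ sort 2 members passed the test, in opposite directions. Lyz1, the lysozyme gene, was at 122 and 154 CPM in Lgr5+WT and 243 and 271 CPM in Lgr5+Setdb1KO, a log2 fold change of 0.90 (SE 0.134, edgeR adjusted p = 0.0482). Mmp7 was at 105 and 155 CPM in Lgr5+WT and 53.3 and 55.7 CPM in Lgr5+Setdb1KO, a log2 fold change of −1.25 (SE 0.175, edgeR adjusted p = 0.0404). Neither gene's groups overlapped. They were 2 of 23 members tested, where 0.727% of 13475 genes were called. An unadjusted edgeR p under 0.05 was found for 8 members and for 1821 of the 13475 genes. Ang4 was lower in both KO libraries (30.9 and 40.3 against 22.6 and 19.5 CPM, log2 fold change −0.76, edgeR adjusted p = 0.0876), and Defa21 and Defa22 had fold changes of 1.60 and 1.48 on the log2 scale (edgeR adjusted p = 0.0876 and 0.0827). Both calls kept their direction in all 16 alternatives, and 0 of the 2 kept the call in all of them. The values were sensitive to single libraries. The members' median log2 fold change, 0.59 with all libraries, was 0.43 and 1.03 without Lgr5+WT replicate 1 and 2. It was 1.06 and −0.063 without Lgr5+Setdb1KO replicate 1 and 2. With Defa limits of 20% and of 50%, which place more cells among the others, 0 members were called, where Lyz1 was at 0.66 and 0.39 on the log2 scale and Mmp7 at −1.23 and −1.20. With the replicate block the Mmp7 call was lost (−1.22, edgeR adjusted p = 0.0663) and that of Lyz1 was not. Without upper limits on genes and UMIs Mmp7 was not called either (edgeR adjusted p = 0.0572).

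In the other cells of the Lgr5+ sort, Itln1, Mmp7 and Lyz1 stood higher against free RNA than the Defa genes did. The limit on the Defa share caps the Defa genes in other cells and not these 3 genes, so that the comparison is a description and supports no source of their RNA. Each member's share in other cells was divided by its share in free RNA and then by the median of that ratio over the Defa genes. For Mmp7 the result was 11.5, 8.64, 9.69 and 4.82 in Lgr5+WT replicates 1 and 2 and Lgr5+Setdb1KO replicates 1 and 2, and 2.20 to 3.11 in the traced libraries. For Itln1 it was 4.57, 3.75, 4.42 and 3.34 and for Lyz1 2.67, 2.22, 6.63 and 3.0997, while for Mptx2 it was 0.622 to 0.927. In the traced libraries Itln1 was at 0.966 to 1.43, and Lyz1 at 1.01 and 1.00 in nTnG WT and 2.29 and 0.994 in nTnG Setdb1-KO, so that Mmp7 alone of these 3 stayed above 2 there in every library. With free RNA read from the next 45000 barcodes by rank, and likewise with a Defa limit of 5%, Itln1 and Mmp7 stayed above 2 in all 4 Lgr5+ libraries and Lyz1 did not. Within the other cells, cells with goblet markers held more of these genes than cells of no marker class. Spink4, 1 of the goblet genes, was also high in Paneth cells, so that passing the goblet limit does not mark goblet cells alone. In cells with at least 2% of their UMIs from 7 goblet genes (698, 683, 518 and 1532 cells), Mmp7 was at 701 and 1044 CPM in Lgr5+WT and 286 and 306 CPM in Lgr5+Setdb1KO. In Lgr5+ cells that passed no marker limit (1493, 1985, 1043 and 5046 cells), Mmp7 was at 9.05, 20.9, 11.2 and 12.9 CPM and Lyz1 at 46.2, 74.8, 94.7 and 135 CPM. Lyz1 in the goblet-marker cells was at 410 and 466 CPM in WT and 1012 and 925 CPM in KO, so that the opposite differences of Mmp7 and Lyz1 were both seen there, without overlap of the groups. Ang4 was at 145 and 196 CPM against 54.1 and 27.1 CPM in the same goblet-marker cells, and Itln1, at 1412 and 1892 against 929 and 1525 CPM, overlapped. The Defa share of the goblet-marker cells was 0.645% and 1.00% in WT and 0.811% and 1.27% in KO. In goblet-marker cells each share was also divided by that in free RNA, and then by the ratio of the summed Defa genes, not by the median. The result was 1.452 to 1.495 for Defa24 but 0.185 to 0.384 for Gm14851 and 0.190 to 0.352 for Defa21. It cannot be set beside the values divided by the median. These cells include those just under the Defa limit. No test was run within the marker classes. Cells with stem cell markers (2151, 2749, 875 and 2922 cells) had Lyz1 at 105 and 106 CPM in Lgr5+WT and 146 and 192 CPM in Lgr5+Setdb1KO. Their Defa share was 0.192% and 0.2505% in WT and 0.2427% and 0.5489% in KO. Lyz1 in Lgr5+ free RNA was at 1004 and 1483 CPM in WT and 1599 and 2024 CPM in KO. The part of free RNA in these stem-marker values was not tested. In the traced sort Mmp7 in goblet-marker cells was at 446 and 358 CPM in WT and 266 and 296 CPM in KO.

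In the free RNA of the Lgr5+ sort most defensins were higher in the KO libraries. Of the 24 members tested 17 were called higher by edgeR and 0 lower, where 1.15% of 7731 genes were called higher, and the members' median log2 fold change was 0.88 against −0.014 over all genes. DESeq2 called 12 of 23 higher, where 39 of 5632 genes were called higher. Defa21 was at 1421 and 1319 CPM in Lgr5+WT and 6363 and 6595 CPM in Lgr5+Setdb1KO, a log2 fold change of 2.24 (SE 0.139, edgeR adjusted p = 1.3e-12), and Defa22 at 1274, 1194, 5570 and 5850 CPM. Defa35 and Defa20, low genes that share most of their 3′ sequence with others, differed by 2.12 and 2.05. The remaining 13 calls ran from 0.63 (Defa23) to 1.42 (Defa27), with the abundant Defa24 at 25886 and 34645 CPM in WT and 54627 and 61236 CPM in KO (log2 fold change 0.94). Of the 5 members outside the defensin locus none was called: Ang4 had 0.65, Lyz1 0.54 and Itln1 0.50 on the log2 scale, Mmp7 −0.20 and Mptx2 −0.84, and Mptx2 rested on Lgr5+WT replicate 2 (283 and 748 CPM in WT, 293 and 284 in KO; 0.04 without that replicate). Defa21 gave 3.29% and 2.31% of the Defa UMIs of the free RNA in WT and 6.60% and 6.11% in KO, so that its share of the mixture also differed. The Defa21 share of UMIs in the Paneth cells of Lgr5+Setdb1KO replicate 1 was 0.255 times that in its own free RNA, against 1.09 to 2.99 times in the other 3 libraries. As a share of the Defa UMIs, Defa21 was lower in Paneth cells than in free RNA in all 4 libraries (1.26%, 0.433%, 0.429% and 3.23% in Paneth cells). The median log2 fold change of the members was 0.98 without Lgr5+Setdb1KO replicate 1 and 0.83 without replicate 2. All 17 calls kept their direction in the 10 alternatives run, and 4 of the 17 kept the call in all of them.

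In the lineage-traced sort most members tested were called lower in KO in other cells, and fewer of them in free RNA. In other cells 18 of 24 members were called lower by edgeR and 0 higher, where 6.18% of 11706 genes were called lower. Other cells are those below the limit on the Defa share, which bounds the values of the Defa genes in them, so that the 12 calls among 17 Defa genes are a description. Of the 7 members whose UMIs did not enter the limit 6 were called lower, with a median of −1.55. The members' median was −1.56 against 0.021 over all genes, and DESeq2 also called 18, where it called 544 of the 11706 genes lower. Mptx2 had the lowest fold change, from 515 and 475 CPM in nTnG WT to 73.6 and 65.2 CPM in nTnG Setdb1-KO (log2 fold change −2.84, SE 0.298, edgeR adjusted p = 1.6e-05). Defa21 was at 4807 and 6991 CPM against 956 and 1567 CPM (−2.23), and Defa24 at 43742 and 52984 CPM against 11386 and 16623 CPM (−1.79, edgeR adjusted p = 0.0324). Itln1 (−1.55), Ang4 (−1.58) and Lyz1 (−1.16) were called lower as well, while Mmp7 (−0.75, edgeR adjusted p = 0.118) was not. With 1 library left out the members' median ran from −1.71 without nTnG WT replicate 1 to −1.51 without nTnG WT replicate 2. All 18 calls kept their direction in the 16 alternatives run, and 2 of the 18 kept the call in all of them. Defa23 and Defa34, which were not called, overlapped between the groups. In free RNA, which no Defa limit chose, 11 of 24 were called lower and 0 higher, where 2.22% of 2702 genes were called lower. The median was −1.52 against −0.0065, and DESeq2 called 14 members lower, where it called 51 of 2230 genes lower. Mptx2 again had the lowest fold change (2717 and 2577 CPM against 594 and 373 CPM, −2.46, SE 0.274, edgeR adjusted p = 0.00248), and Lyz1 followed the defensins (2904 and 3609 against 1030 and 882 CPM, −1.77). Of the 11 calls, 4 were single genes outside the locus (Mptx2, Lyz1, Ang4 and Itln1). Defa5, Defa23, Defa34 and Defa36, which were not called, overlapped between the groups. With 1 library left out the members' median in free RNA ran from −1.90 without nTnG Setdb1-KO replicate 1 to −1.20 without nTnG Setdb1-KO replicate 2. The 11 calls in free RNA kept their direction in the 10 alternatives run, and 6 of the 11 kept the call in all of them. The Paneth share of kept cells moved in the same direction as both results, and the part of the number of Paneth cells in them was not tested.

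The different genotype effects in free RNA were tested as an interaction of genotype and sort, a test added after seeing the data. Most members had opposite directions in the sorts. Mptx2 (−0.84 in the Lgr5+ sort and −2.46 in the traced sort) and Mmp7 (−0.20 and −0.995) were below 0 in both. The genotype effect was lower in the traced sort for 20 of the 24 members at an edgeR adjusted p under 0.05, where 1.17% of 6904 genes were called lower, with a median interaction of −2.34 on the log2 scale. DESeq2 called 17. Defa21 (−4.28), Defa22 (−4.24) and Defa35 (−4.15) lay at the far end, and Lyz1 (−2.31), Ang4 (−2.26) and Itln1 (−1.97) were called too. Mmp7 (−0.79), Defa23 (−1.48), Defa28 (−1.67) and Defa36 (−1.85) were not called. Mptx2 was called by edgeR (−1.61, adjusted p = 0.0376) and not by DESeq2. The sorts also differ in which cells were gated and in the reporter the mice carried, which cannot be told apart here.

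Other genes of the Paneth programme were read in the same Paneth cell fits from 5 lists. Over all genes of these fits 0.153% were called in the Lgr5+ sort and 1.5% in the traced sort (10 genes higher and 77 lower). In the Lgr5+ sort edgeR called none of the 7 goblet genes tested (of 7), the 9 granule, secretion and ER genes (of 12), the 3 niche ligands (of 6), the 11 other secreted products (of 15) or the 7 secretory transcription factors (of 8). Their medians were 0.41, −0.17, −0.56, 0.50 and −0.14 on the log2 scale. In the traced sort 1 of 10 granule genes was called, Slc30a2, a zinc transporter of secretory granules. It was lower in KO (26.4 and 14.1 against 2.07 and 7.72 CPM, log2 fold change −2.03, edgeR adjusted p = 0.0199). The KO values rest on few UMIs, since these Paneth cells (233 and 163) held 797392 and 1002431 UMIs over all genes. Among the 11 other secreted products tested, the lectin genes Reg3b (427 and 1116 against 81.8 and 90.7 CPM, −3.16) and Reg3g (1337 and 1769 against 236 and 325 CPM, −2.47) were lower in KO. Retnlb, a goblet cell product, was higher (7.42 and 11.2 against 52.8 and 48.3 CPM, 2.45). None of the 7 goblet genes, 2 niche ligands and 7 transcription factors tested was called, with medians of −0.58, 0.19 and 0.047. Enterocyte markers in the same Paneth barcodes summed to 984 and 4209 CPM in nTnG WT and 484 and 434 CPM in nTnG Setdb1-KO, and the median mitochondrial share was 0.412% and 2.24% against 0.713% and 0.592%. Their part in these results was not tested. The Paneth barcodes of nTnG WT whose Defa share was below that of their free RNA entered these values as well, and their part was not tested.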

How the data were processed

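Members and gene lists were chosen with earlier results of these data known. The authors deposited raw UMI counts per gene and barcode, made with Cell Ranger 6.1.1 on mm10 per the labels, which also name Seurat 5.0.3; the strand setting and the treatment of reads shared by several genes are not given in the sources used here. Cell Ranger by default drops reads that map equally well to several genes.

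Cells were called from the unfiltered barcodes: a UMI limit at 10% of the 99th percentile of 3000 expected cells, then a test of barcodes with at least 500 UMIs against free RNA (10000 simulations, false discovery rate 0.01). Doublets were scored with artificial neighbours (pN 0.25, pK 0.09, 10 principal components) and removed at 0.8% per 1000 cells. The study's own cell limits were then applied: 200 to 4000 detected genes, no more than 18000 UMIs, and a mitochondrial share below 5%. UMIs were summed per library over Paneth cells, other cells and free RNA. They were tested by quasi-likelihood in edgeR 4.0.16 (low counts removed by filterByExpr, scaling by TMM, Benjamini-Hochberg over all genes). DESeq2 1.42.0 was the alternative, and both ran in R 4.3.3. Only the edgeR fit was also tried on simulated data. Shares were compared with exact two-sided permutation tests over the 6 splits. The other steps used Python 3.11.15, numpy 2.4.6, scipy 1.17.1, pandas 2.3.3 and scikit-learn 1.9.0. The libraries of a group are the replicates, and p-values measure the spread between these libraries only. Free RNA held 242264 to 4024603 UMIs per library, from barcodes of 4 to 156 UMIs. All members are named, and of the programme lists every gene that passed the threshold in Paneth cells. Cells that passed several marker limits were left out of the marker classes. Same-numbered libraries were checked for pairing by the correlation of their deviations from the group means. Alternatives were other size factors, no low-count filter, each library left out, a replicate block, other cell limits, other Defa limits and other free RNA ranks.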

Additional observations from a re-analysis of the deposited data

Results flagged for a closer look

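In free RNA the genotype effects on 20 of the 24 members tested differed between the sorts by the edgeR interaction test at an adjusted p under 0.05. Over the 6904 genes of that test 1.17% were called lower. The test was added after seeing the data, and values are lineage-traced minus Lgr5+ on the log2 scale. The values were −4.28 for Defa21, −4.24 for Defa22, −4.15 for Defa35, −3.82 for Defa20, −3.61 for Defa32 and −3.20 for Defa27. They were −2.87 for Defa5, −2.67 for Defa30, −2.58 for Defa29, −2.55 for Defa24, −2.42 for Defa26, −2.36 for Defa34, −2.33 for Gm14851, −2.25 for Defa17, −2.02 for Defa3 and −1.89 for AY761184. Outside the defensin locus they were −2.31 for Lyz1, −2.26 for Ang4, −1.97 for Itln1 and −1.61 for Mptx2.

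The Defa share of free RNA was higher in KO by 4.46 percentage points in the Lgr5+ sort and differed by −21.4 percentage points, KO minus WT, in the lineage-traced sort, with every library of each genotype on its own side. The difference between these shares of the sorts was not tested.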

How the results depend on the processing

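Members called in Lgr5+ Paneth cells numbered 1 with no filter on low counts, 7 with no upper limits on genes and UMIs, 3 with Defa limits of 5% and 20%, and 1 with 20% and 40%. Over all genes of these fits 10 of 13493, 56 of 8328, 20 of 5330 and 3 of 2424 were called higher. In the same order 9, 26, 18 and 9 were called lower. With 1 library left out the members' median log2 fold change ran from −0.44 to 0.74. In other Lgr5+ cells, where 2 members were called, the calls numbered 5 with no filter, 5 with doublets kept, and 0 with Defa limits of 20% and 40% or of 50%. Over all genes of these fits 195 of 20119, 158 of 13674, 52 of 13488 and 45 of 13487 were called higher, and 165, 109, 17 and 14 lower. With 1 library left out the median ran from −0.063 to 1.06. In Lgr5+ free RNA the members called numbered 11 with the next 45000 barcodes, where 25 of 1807 genes were called higher and 10 lower. The median ran from 0.67 to 1.10 with 1 library left out. In traced Paneth cells the members called numbered 1 with limits of 20% and 40% and 3 with 50%. Over all genes of these fits 7 of 3941 and 17 of 2614 were called higher, and 50 and 44 lower. With 1 library left out the median ran from −0.73 to 0.38. In other traced cells the median ran from −1.71 to −1.51 with 1 library left out. In traced free RNA, where 11 were called, they numbered 21 with no filter, 20 with the next 45000 barcodes and 6 to 23 with 1 library left out.

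The KO minus WT difference of the Paneth share in the traced sort, in percentage points, was −44.7 with the first UMI limit only, −9.46 with Defa limits of 20% and 40%, −7.20 with 50%, and −34.8 to −11.9 with 1 library left out. For the Defa share of other traced cells it was −4.49 with the first UMI limit only, −5.45 with limits of 5% and 20%, −10.1 with 20% and 40%, and −11.8 with 50%. For the Defa share of Lgr5+ free RNA it was 3.22 with the next 45000 barcodes. The median log2 fold change of the members in Paneth cells turned from 0.37 to −0.45 with a Defa limit of 50% in the Lgr5+ sort and from −0.24 to 0.15 with no upper limits in the traced sort. Defa23 in traced free RNA ran from −1.64 to 1.13 on the log2 scale with 1 library left out, and turned positive without nTnG WT replicate 2. The cause of these changes was not tested. The members called in other cells and in free RNA (2, 17, 18 and 11) kept their direction in all alternatives run, and 0, 4, 2 and 6 of them kept the call in all.

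Same-numbered libraries correlated at −0.0345 to −0.0155 in the Lgr5+ sort and at −0.00173 (free RNA), 0.111 (Paneth cells) and 0.259 (other cells) in the traced sort. The labels do not say that a number marks a shared animal, litter or day, and 2 pairs per sort do not settle whether the numbers pair the libraries. With the replicate block, members called numbered 1 in Lgr5+ Paneth cells, 1 in other Lgr5+ cells (Lyz1, with Mmp7 lost), 21 in Lgr5+ free RNA, 0 in traced Paneth cells, 19 in other traced cells and 13 in traced free RNA. Over all genes tested, in the same order, 7, 22, 112, 10, 456 and 0 were called higher. Those called lower numbered 10, 12, 73, 97, 1108 and 68, of 3911, 13475, 7731, 5786, 11706 and 2702 genes.

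With 2 libraries per group no exact test can pass 0.05. Paneth cells were few in Lgr5+Setdb1KO replicate 1 (44 cells), and free RNA held 242264 to 1099721 UMIs per traced library against 2070473 to 4024603 per Lgr5+ library. The part of these in the results was not tested. Counts of near-identical defensin genes cannot be separated, and the 30% limit lay below the Defa share of nTnG WT free RNA.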
